A study of Homo sapiens with 12 samples.

Results

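Wnt-associated intestinal stemness genes are mRNAs that an earlier published list ties to the stem cells of the intestinal crypt and to Wnt signaling, and 58 genes carry that mark in the table deposited by the authors. AXIN2 and EPHA4 were left out here by rule, so that 56 of the 15798 listed genes are described. The genes were measured by ribosome profiling (Ribo-seq) in HCT116, a human colorectal cancer cell line, after 24 h with trametinib at 100 nM, which blocks the kinases MEK1 and MEK2, or with the solvent DMSO alone. Each treatment had 3 biological replicates, and each replicate gave an input library of fragmented RNA and a library of ribosome protected fragments (footprints) from RNase I digestion. Input and footprints of both treatments thus make 4 groups of 3, or 12 libraries. All dishes were unmodified HCT116 cells and all received cycloheximide, a blocker of translation elongation, shortly before lysis. Of the 56 genes, 35 reached 10 or more counts in at least 3 input libraries and were tested, while 21 did not. HCT116 is 1 cell line grown without stroma or crypt architecture, so the gene names mark a published list and not stem cells that were isolated.

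Wnt ligands act on crypt base cells by stabilizing beta-catenin, which joins TCF/LEF factors on DNA and keeps stem cell genes on. LGR5, the receptor for R-spondins that amplify the Wnt signal, is the best known marker of these cells. MEK and ERK relay growth factor signals in the same cells and drive their division. The genes described here have varied roles: receptors, secreted proteins, transcription regulators, a group of zinc finger genes, cytoskeletal and scaffold proteins, enzymes and transporters. A list of this kind is therefore a set of marker genes and not 1 pathway.

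Promoters are shown for 2 genes, because they carry the letters to which TCF/LEF factors and the cell cycle factors of the E2F family are known to bind. Promoter sequences from RefSeq (GRCh38.p14, 250 bases before to 50 bases after a gene start) were found for 50 of the 56 genes, with 73 promoters in all. The TCF/LEF letters CTTTGAT were searched on both strands and occurred in 1 of these 73 promoters, that of IL17RD, against 2.62% of 35116 promoters. The E2F letters TTTCCCGC or TTTGGCGC, searched likewise, occurred in 2 of 73, those of DTL and SERTAD4, against 2.27% of all promoters. The motifs were chosen with the changes of these genes known, and a match describes letters in a window and not a bound site. The capitals mark the match in the promoter of IL17RD (chr3:57170268-57170567, minus strand), a membrane inhibitor of growth factor signaling, and in that of DTL (chr1:212035498-212035797, plus strand), a cell cycle gene.
IL17RD: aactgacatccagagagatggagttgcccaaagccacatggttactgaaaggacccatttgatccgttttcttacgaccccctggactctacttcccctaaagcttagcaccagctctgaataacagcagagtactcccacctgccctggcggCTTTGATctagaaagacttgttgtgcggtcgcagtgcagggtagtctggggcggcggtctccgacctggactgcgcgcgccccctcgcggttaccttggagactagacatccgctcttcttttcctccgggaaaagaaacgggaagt
DTL: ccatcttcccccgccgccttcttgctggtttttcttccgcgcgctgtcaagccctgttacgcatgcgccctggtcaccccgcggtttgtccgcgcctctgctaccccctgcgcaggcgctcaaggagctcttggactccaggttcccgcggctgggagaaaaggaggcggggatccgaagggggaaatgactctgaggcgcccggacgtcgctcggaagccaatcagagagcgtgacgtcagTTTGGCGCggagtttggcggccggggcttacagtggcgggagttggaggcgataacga

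The 6 input libraries held 2276693 to 2845568 counts each in coding sequences, and the 6 footprint libraries held 10127477 to 19181588. The 56 genes together took from 0.10% to 0.13% of the counts of a library. The footprint libraries were thus the deeper ones for these genes. The dish of DMSO replicate 1 stood apart: the deviations of its input and footprint libraries from their group means correlated with Pearson's r of 0.82 across 7677 genes, against r between -0.12 and 0.34 in the other 5 dishes. Results are therefore also given without it. All 6 epithelial marker genes were measured, with a summed level of 29430 to 44965 normalized counts in DMSO input and of 49784 to 62171 in trametinib input. The 6 fibroblast markers summed to between 45.3 and 83.7 in DMSO input and between 127 and 167 in trametinib input, with 2 of 6 measured. The rise lay mostly in COL3A1, with means of 0.72 and 83.4, while COL1A1 had 66.8 and 58.8. The 5 immune markers were below the minimum, with 2 at 0 in every input library, and 1 of 4 endothelial markers was measured. All dishes held 1 cell line, so these sums are levels in that line and not shares of cell types. In bulk RNA, fewer cells of one kind and less RNA per cell cannot be told apart.

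LGR5 (chr12:71439798-71586310, plus strand) was at 0 counts in all 6 input libraries. Its footprint counts were 0, 0 and 1 in the DMSO libraries and 2, 1 and 1 in the trametinib libraries, so that all 12 libraries lie at or under the floor of 3 counts. Expression of LGR5 was therefore not detectable at this depth, and no fold change is given. Of the 21 genes below the minimum in input, 10 had at most 3 counts in every library. These were BEX1, CYP2E1, IGFBP4, LGR5, SCN2B, SLC38A4, SORBS2, ZNF141, ZNF626 and ZNF93. The highest count in any library was 4 for SERTAD4, 7 for BCL2, 11 for ZNF493 and 13 for DLGAP1, too low for a test.

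A further 7 genes reached 10 counts in 3 libraries only when footprints were counted in. With that wider filter, 5 of the 7 passed the test in footprints at an edgeR adjusted p-value under 0.05, beside 48.5% of the 12000 genes tested, and 0 of the 7 passed in input (edgeR), where 0 also had an unadjusted p-value under 0.05. TNFRSF19 (TROY), a receptor of the TNF family and a known crypt stem cell marker, had footprint counts of 5, 11 and 16 in DMSO and of 45, 46 and 21 in trametinib. Its change was 1.59 on the log2 scale (SE 0.45, edgeR adjusted p = 0.0154). SLCO3A1, an organic anion transporter, changed by 1.52 (SE 0.34, edgeR adjusted p = 0.00497), and SLC1A2, a glutamate transporter, by 1.26 (SE 0.36, edgeR adjusted p = 0.0161). SLC1A2 reached the wider minimum through its trametinib footprints alone (21, 13 and 12 counts, against 6, 3 and 8 in DMSO), so that its call and its place among the 5 rest on that selection. TNFRSF19, SLCO3A1 and ZNF85 likewise did not reach it from the treatment where they are lower. Of the 5, DGKG alone did, so that the filter favoured a difference in the others. ZNF85, a zinc finger gene, fell by 1.93 (SE 0.34, edgeR adjusted p = 0.00127) and DGKG, a diacylglycerol kinase, fell by 1.00 (SE 0.25, edgeR adjusted p = 0.00868). These 5 genes are named because of their calls, after their values were seen.

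The first comparison asked whether the mRNAs of the stemness genes changed in abundance when MEK was inhibited. In input, 8 of the 35 measured genes were higher and 5 were lower at an edgeR adjusted p-value under 0.05, and 22 did not pass. Among all 10663 genes tested 32.1% passed, 15.3% higher and 16.8% lower, so that the 13 genes that passed here are a share close to that of all genes. The higher genes were KIF26B, NPNT, FSTL1, DYNC2H1, IGF1R, UTRN, GRAMD1A and ABTB2, and the lower ones were DTL, ZNF273, ZNF714, PITPNC1 and LDHB. The median log2 change of the 35 genes was 0.27, against -0.0035 over all genes, and 24 of 35 estimates were above 0. The DMSO and trametinib libraries did not overlap for 20 of the 35 genes, beside 46.8% of all genes. Without DMSO replicate 1, 9 genes were higher and 5 lower. With DESeq2 in place of edgeR, 7 were higher and 3 lower, since ABTB2, LDHB and ZNF273 no longer passed. Of the 35 genes, 4 reached the minimum of 10 counts through libraries of 1 treatment alone, KIF26B through trametinib and ZNF273, ZNF678 and ZNF714 through DMSO, so that the filter itself favoured a difference in them. Without these 4 genes, 7 of 31 were higher and 3 lower in input, and 12 were higher and 6 lower in footprints.

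**Figure D1:**
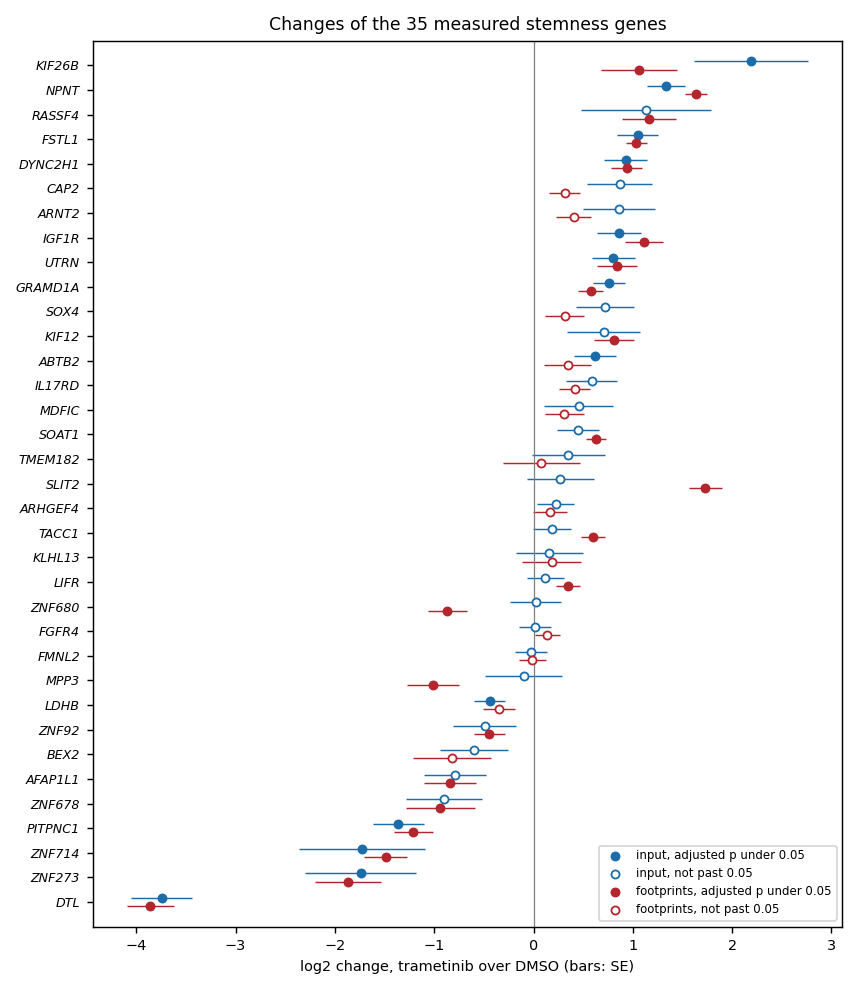
Log2 change of trametinib over DMSO (x axis) for each of the 35 measured stemness genes (y axis, ordered by the input change), in input (blue) and footprints (red), with bars for 1 SE and filled points for an edgeR adjusted p-value under 0.05. The changes run from -3.74 for DTL to 2.19 for KIF26B in input, and in both assays more of the filled points lie to the right of 0 than to the left.

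Both secreted proteins that passed were higher. NPNT encodes nephronectin, an integrin ligand of basement membranes (chr4:105894775-106004027, plus strand). Its input level was 139.5, 125 and 113 normalized counts in the DMSO libraries and 370.5, 303 and 289 in the trametinib libraries. All trametinib libraries lay above all DMSO libraries, a log2 change of 1.33 (SE 0.19, edgeR adjusted p = 1.82e-04). FSTL1, a secreted glycoprotein that binds ligands of the BMP family (chr3:120392293-120451016, minus strand), had 127, 110.0 and 86.7 normalized counts in DMSO and 227, 232 and 219 in trametinib. Its level was about equal in the 3 treated libraries, and the log2 change was 1.05 (SE 0.20, edgeR adjusted p = 0.00177). SLIT2, a secreted guidance ligand of ROBO receptors, did not pass in input and is described with the footprints.

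Of the receptors, IGF1R passed. IGF1R is the receptor tyrosine kinase for insulin-like growth factors (chr15:98648539-98964530, plus strand). It had 112, 106 and 169 normalized counts in DMSO input and 268, 224 and 213 in trametinib input, with no overlap. The log2 change was 0.86 (SE 0.22, edgeR adjusted p = 0.0103), and the call was lost without DMSO input replicate 2 (0.73) and without trametinib input replicate 1 (0.76). FGFR4, a fibroblast growth factor receptor with one of the highest levels among these genes, had 713 ± 106 normalized counts in DMSO and 728 ± 42.8 in trametinib (mean ± SD, n = 3). Its input change of 0.02 (SE 0.16) did not pass, and neither did those of LIFR at 0.12 (SE 0.19) and IL17RD at 0.59 (SE 0.26). These 3 receptors were named after their values were seen.

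Cytoskeletal and scaffold genes made up 9 of the measured genes, and 3 of them were higher in input while 0 were lower. The 3 make 33.3% of the group, while 32.1% of all genes passed, 15.3% higher and 16.8% lower. KIF26B, a kinesin family member of the cytoskeleton (chr1:245154985-245709432, plus strand), had only 10.7, 2.16 and 7.03 normalized counts in DMSO input and 24.4, 26.1 and 41.7 in trametinib input. The groups did not overlap, and the log2 change of 2.19 has a wide SE of 0.58 (edgeR adjusted p = 0.00718). No DMSO input library of KIF26B reached the minimum of 10 counts, so that the gene was tested only because it was high in trametinib. In the fit without a filter the change was 2.18 (edgeR adjusted p = 0.00419). DYNC2H1, the heavy chain of the dynein motor that works in cilia (chr11:103109410-103479863, plus strand), had 75.1, 88.5 and 86.7 normalized counts in DMSO and 171, 130.4 and 179.6 in trametinib. This was a log2 change of 0.93 (SE 0.22, edgeR adjusted p = 0.00627), again without overlap. UTRN, which encodes utrophin, a link between actin and the membrane (chr6:144285335-144853034, plus strand), had 466, 421 and 246 normalized counts in DMSO and 756, 623 and 622 in trametinib. DMSO replicate 3 was the lowest library, and the log2 change was 0.80 (SE 0.21, edgeR adjusted p = 0.0124). It no longer passed without trametinib input replicate 1, where the change was 0.71.

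The other higher genes were GRAMD1A and ABTB2. GRAMD1A encodes a carrier of cholesterol from the plasma membrane to the endoplasmic reticulum (chr19:34994784-35026471, plus strand). It had 453, 412 and 542 normalized counts in DMSO input and 765, 780.0 and 862 in trametinib input, a log2 change of 0.76 (SE 0.16, edgeR adjusted p = 0.00309). The spread within each group was small beside the gap between them. ABTB2, a protein with BTB domains (chr11:34150987-34358010, minus strand), had 116, 106 and 103 normalized counts in DMSO and 139, 196 and 169 in trametinib. Its groups were apart, but the log2 change of 0.62 (SE 0.21, edgeR adjusted p = 0.0413) was near the threshold. It was lost without replicate 2 or 3 of either treatment, with adjusted p-values of up to 0.185.

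DTL had the strongest change of all stemness genes measured. DTL is the substrate receptor of a ubiquitin ligase that acts in S phase (chr1:212035553-212107400, plus strand, with the promoter shown above). Its input level was 335, 574 and 438 normalized counts in DMSO and 43.9, 33.9 and 23.4 in trametinib. Every treated library was far under every DMSO library, and the log2 change was -3.74 (SE 0.30, edgeR adjusted p = 7.68e-07). All 16 genes of a list of proliferation genes were also lower in input, with a median log2 change of -3.02. Whether the fall of DTL is part of that change was not tested.

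PITPNC1, a phosphatidylinositol transfer protein (chr17:67377281-67697256, plus strand), had 371, 205 and 218 normalized counts in DMSO input and 107, 112 and 93.7 in trametinib input. DMSO replicate 1 was its highest library, and the log2 change was -1.36 (SE 0.26, edgeR adjusted p = 0.00143). It was -1.03 without that library and still passed. LDHB, a subunit of lactate dehydrogenase (chr12:21635342-21757857, minus strand), is by far the most abundant of these mRNAs. It had 979, 1262 and 1217 normalized counts in DMSO and 921, 866 and 784 in trametinib, without overlap. The log2 change of -0.44 (SE 0.15, edgeR adjusted p = 0.0424) was near the threshold. Of the 6 fits that left out 1 library, that without DMSO replicate 1 called it (-0.55), and the others gave -0.38 to -0.49 with adjusted p-values of up to 0.165.

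Zinc finger genes, many of which encode DNA-binding repressors, were 10 of the 56 genes and 5 of those measured. In input, 2 of the 5 were lower and 0 were higher, beside 16.8% lower and 15.3% higher among all genes. ZNF273 (chr7:64870172-64930981, plus strand) had 21.5, 38.8 and 23.4 normalized counts in DMSO and 12.2, 10.4 and 2.60 in trametinib. ZNF714 (chr19:21082159-21125270, plus strand) had 51.5, 41.0 and 23.4 in DMSO and 14.6, 20.9 and 0 in trametinib. Neither gene had overlapping groups, and the log2 changes were -1.74 (SE 0.56, edgeR adjusted p = 0.0226) and -1.73 (SE 0.63, edgeR adjusted p = 0.0423). Both genes, like ZNF678, were tested only because they reached the minimum in DMSO, where they are high, and no trametinib input library did. In the fit without a filter the changes of ZNF273 and ZNF714 were -1.75 and -1.74 (edgeR adjusted p = 0.0187 and 0.0142). ZNF273 lost its call without DMSO replicate 2, trametinib replicate 2 or trametinib replicate 3 (adjusted p of up to 0.0941). ZNF714 lost it without DMSO replicate 1 or 2 or trametinib replicate 1 or 3 (adjusted p of up to 0.105). Genes of this family have near-identical copies, and reads shared between symbols were not counted by the authors, so that their levels are uncertain.

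**Figure D2:**
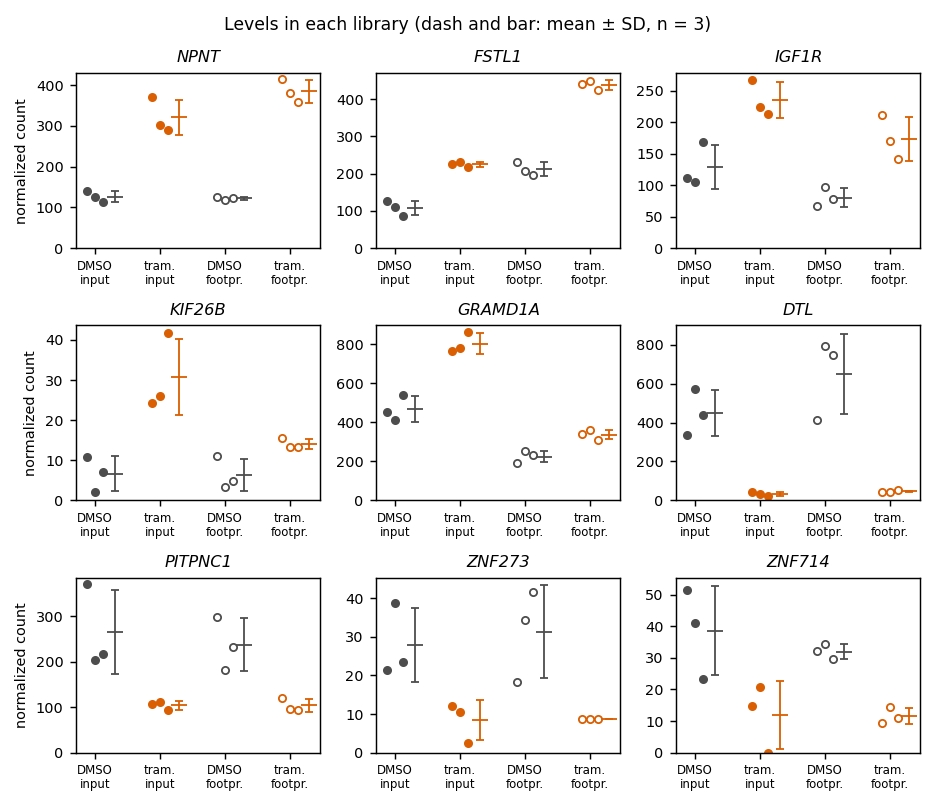
Normalized counts (y axis, starting at 0) of 9 stemness genes in each DMSO (grey) and trametinib (orange) library, for input (filled) and footprints (open), with the mean ± SD of 3 libraries beside the points. NPNT, FSTL1, IGF1R, KIF26B and GRAMD1A are higher and DTL, PITPNC1, ZNF273 and ZNF714 are lower in trametinib, without overlap of the groups in either assay.

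The second comparison asked whether more or fewer ribosomes were found on these mRNAs in total. In footprints, 13 of the 35 genes were higher and 9 were lower at an edgeR adjusted p-value under 0.05. Of all genes 49.3% passed, 23.9% higher and 25.4% lower. The 22 genes that passed are 62.9% of those measured, and the DMSO and trametinib groups were apart for 24 of 35, beside 59.6% of all genes. The median log2 change was 0.31, against -0.0095 over all genes. Without DMSO replicate 1, 16 genes were higher and 9 lower. When library totals replaced the size factors, the median of all genes moved to 0.16 and the split of the stemness genes became 16 higher and 6 lower. All genes moved likewise, to 3577 higher and 1944 lower from 2552 and 2710 in the main fit. With the replicate number as a block, 12 were higher and 7 lower, and LIFR, AFAP1L1 and ZNF92 no longer passed, with edgeR adjusted p-values of 0.0674, 0.0503 and 0.073.

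Of the 13 genes called in input, 11 were also called in footprints, each in the same direction. This count is not set against all genes. ABTB2 and LDHB were the other 2, with footprint changes of 0.34 (SE 0.24, edgeR adjusted p = 0.256) and -0.35 (SE 0.16, edgeR adjusted p = 0.0973). NPNT had 126, 118 and 122 normalized footprint counts in DMSO and 414, 381 and 358 in trametinib, a log2 change of 1.64 (SE 0.11, edgeR adjusted p = 7.25e-06). FSTL1 had 232, 208 and 195 in DMSO and 441, 449.8 and 425 in trametinib, a log2 change of 1.04 (SE 0.11, edgeR adjusted p = 9.76e-05). Both secreted proteins thus had higher normalized footprint counts in every treated library, with little spread. IGF1R had 66.5, 97.2 and 77.8 normalized footprint counts in DMSO and 211, 170.1 and 141 in trametinib. Its log2 change of 1.11 (SE 0.19, edgeR adjusted p = 0.0017) passed in all 13 alternatives, unlike its input change. DTL fell from 415, 791 and 748 to 44.7, 41.0 and 50.7 normalized footprint counts, a log2 change of -3.86 (SE 0.24, edgeR adjusted p = 6.21e-06).

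Other genes called in both assays were DYNC2H1, UTRN, GRAMD1A, PITPNC1 and KIF26B. DYNC2H1 had 84.0, 94.6 and 73.0 normalized footprint counts in DMSO and 149.7, 146 and 189.6 in trametinib. UTRN had 355, 393 and 213 in DMSO and 610.1, 564 and 561 in trametinib. GRAMD1A had 191, 251 and 229.6 in DMSO and 339.8, 359 and 310.2 in trametinib. These 3 genes did not overlap between the treatments and changed by 0.94, 0.84 and 0.57 on the log2 scale. PITPNC1 had 299, 182 and 232 in DMSO and 121, 96.0 and 94.3 in trametinib, a log2 change of -1.21 (SE 0.19, edgeR adjusted p = 0.00107). KIF26B had 10.96, 3.24 and 4.75 in DMSO and 15.4, 13.2 and 13.4 in trametinib. DMSO replicate 1 was close to the treated libraries, and the log2 change of KIF26B was 1.06, against 2.19 in input (SE 0.38 in footprints, edgeR adjusted p = 0.0414), which passed without DMSO replicate 1 (1.74) and in none of the other 5 fits that left out a library.

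A further 11 genes passed in footprints only, 6 higher and 5 lower, which does not show that the assays differ for them. They are named after their values were seen. The higher ones were SLIT2, RASSF4, a RAS association domain protein, KIF12, a kinesin, SOAT1, an enzyme that esterifies cholesterol, TACC1, a coiled-coil protein of the centrosome, and LIFR, the receptor for leukemia inhibitory factor. Leaving SLIT2 aside, their footprint changes ran from 0.35 for LIFR to 1.16 for RASSF4 on the log2 scale. The call of LIFR was unstable. It held in 5 of 13 alternatives and in 1 of the 6 fits that left out a library (edgeR adjusted p of up to 0.142). SOAT1 rose from 555 ± 25.8 to 867 ± 38.2 normalized footprint counts (SD, n = 3), a log2 change of 0.63 (SE 0.10, edgeR adjusted p = 0.00103). The lower ones were ZNF678, ZNF680, ZNF92, the scaffold gene MPP3 and AFAP1L1, an adaptor of actin filaments, with log2 changes between -1.01 for MPP3 and -0.44 for ZNF92. The call of AFAP1L1 held in 7 of 13 alternatives and in 2 of the 6 fits that left out a library (edgeR adjusted p of up to 0.0994).

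All 5 measured zinc finger genes were thus lower in footprints. ZNF273 had 18.3, 34.3 and 41.6 normalized footprint counts in DMSO and 8.64, 8.69 and 8.62 in trametinib, a log2 change of -1.87 (SE 0.33, edgeR adjusted p = 0.00157). ZNF714 had 32.2, 34.3 and 29.6 in DMSO and 9.26, 14.5 and 11.01 in trametinib, a log2 change of -1.49 (SE 0.22, edgeR adjusted p = 6.09e-04). For both genes the treated libraries lay under every DMSO library. The median of the 5 was -0.94. Among the other 284 measured genes whose symbol starts with ZNF and a number, 47 were lower, 29 were higher and the median was -0.06. The calls of ZNF678 and ZNF92 were the least stable of the 5. ZNF678 had overlapping groups (log2 change -0.94, SE 0.35, edgeR adjusted p = 0.0491) and did not pass with DESeq2, limma-trend or library totals. ZNF92 (log2 change -0.44) did not pass with DESeq2, library totals or the replicate block, with adjusted p-values of up to 0.189. Each of these 2 genes kept its call in 1 of the 6 fits that left out a library, ZNF678 without DMSO replicate 2 and ZNF92 without DMSO replicate 1. The group of 5 was singled out after its values were seen, and 3 of the 5 were tested only because they were high in DMSO input, so that these counts and medians are a description.

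**Figure D3:**
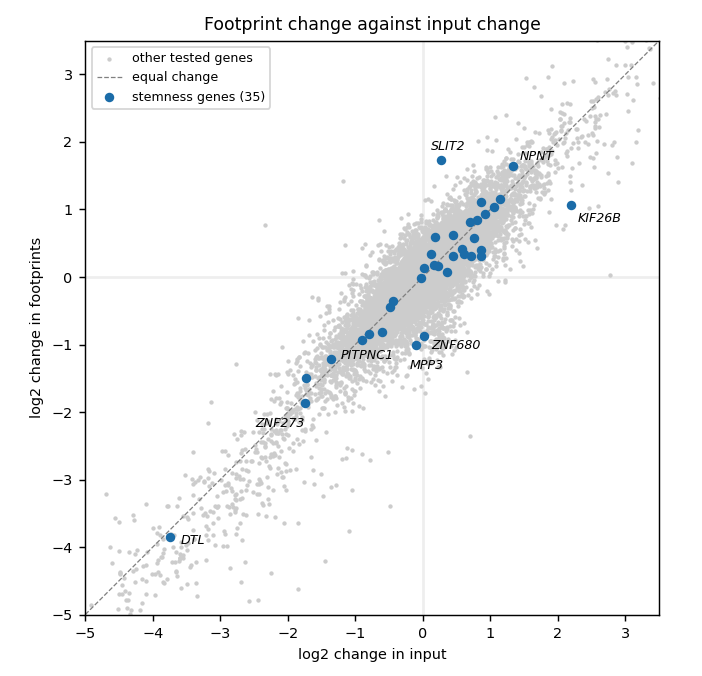
Log2 change in footprints (y axis) against log2 change in input (x axis), trametinib over DMSO, for the 35 stemness genes (blue) and the other tested genes (grey) within the axis limits, with a dashed line where both are equal. Most stemness genes lie near the line from DTL at the lower left to NPNT at the upper right, while SLIT2 lies above it and ZNF680, MPP3 and KIF26B lie below.

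The third comparison asked whether translation changed beyond mRNA abundance, by the ribosome density of each gene, which is its footprints relative to its input. At an edgeR adjusted p-value under 0.05, 1 of the 35 genes, SLIT2, had a higher ribosome density and 0 had a lower one. Among all genes 1.05% passed, 0.0469% higher and 1.00% lower. Before adjustment, p lay under 0.05 for SLIT2 and ZNF680, 2 of the 35. The median log2 change of ribosome density was -0.01, against -0.00053 over all genes, and 17 of 35 estimates were above 0. The input and footprint changes had the same sign for 34 of 35 genes, with Pearson's r of 0.92 across genes, which are not independent replicates. DTL, at -3.74 in input and -3.86 in footprints, lies farthest from the other genes. The same values over all genes are not given, so the agreement is not shown to be particular to the stemness genes. The median SE of a ribosome density change over the 35 genes was 0.33 on the log2 scale.

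SLIT2 (chr4:20251905-20620561, plus strand) is weakly expressed, with 23.6, 30.2 and 21.1 normalized counts in DMSO input and 34.1, 28.7 and 28.6 in trametinib input. The input groups overlapped, and the log2 change was 0.27 (SE 0.34, edgeR adjusted p = 0.578). In footprints SLIT2 had 16.4, 16.2 and 16.4 in DMSO and 54.9, 50.5 and 59.4 in trametinib. The footprint change was 1.73 on the log2 scale (SE 0.16, edgeR adjusted p = 5.36e-05), and it passed in all 13 alternatives. In each dish, the log2 ratio of footprints to input was -0.52, -0.90 and -0.36 in DMSO and 0.69, 0.82 and 1.05 in trametinib. The 3 treated dishes lay above all DMSO dishes, a ribosome density change of 1.46 (SE 0.31, edgeR adjusted p = 0.0396). With a block that ties together both libraries made from 1 lysate, the change was 1.44 and no longer passed (edgeR adjusted p = 0.0804). DESeq2 gave no adjusted p-value for SLIT2, with an unadjusted p of 0.00134. Without both libraries of DMSO replicate 1 the change was 1.50 (edgeR adjusted p = 0.103), and of the 12 fits that each left out 1 library, only that without DMSO input replicate 3 called it.

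The other 3 genes farthest from equal change, chosen after their values were seen, had ribosome densities that did not pass. For ZNF680, input was 64.4, 77.7 and 63.3 normalized counts in DMSO and 87.7, 67.8 and 54.7 in trametinib, while footprints were 34.0, 31.7 and 37.6 and then 22.5, 19.0 and 15.3. Its ribosome density change was -0.89 (SE 0.31, edgeR adjusted p = 0.393), with no overlap between dishes. MPP3 had a change of -0.91 (SE 0.48, edgeR adjusted p = 0.714) and KIF26B one of -1.13 (SE 0.74, edgeR adjusted p = 0.794). In all, the dishes of the treatments did not overlap in 4 of 35 genes, NPNT included, beside 17.1% of all genes.

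**Figure D4:**
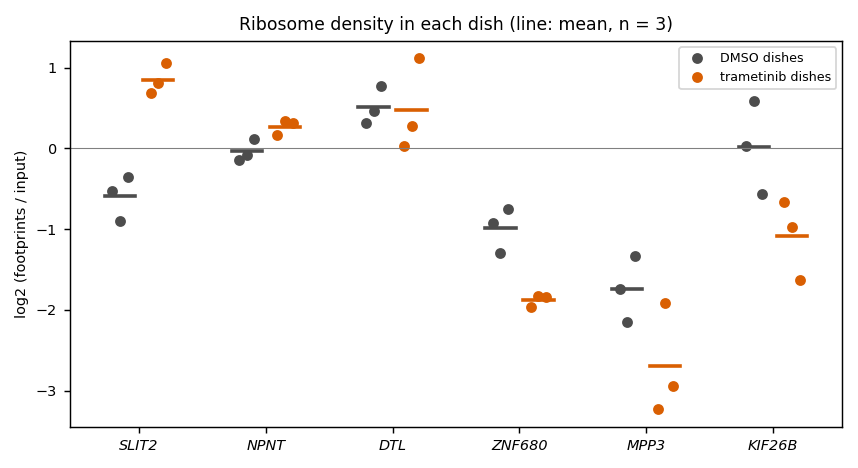
Ribosome density, as the log2 ratio of normalized footprints to normalized input (y axis), in each DMSO (grey) and trametinib (orange) dish for 6 stemness genes, with a line at the mean of 3 dishes. SLIT2 moves from between -0.90 and -0.36 to between 0.69 and 1.05, DTL and MPP3 overlap between treatments, and ZNF680 and KIF26B are lower in the treated dishes.

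Without treatment, the ribosome density of the stemness genes spanned the range of most other genes. In DMSO the median log2 ratio was -0.18 over the 35 genes and 0.04 over the 10633 genes with counts in every DMSO library, of which the middle 90% lay between -1.80 and 1.47. MPP3 had the lowest value at -1.74 ± 0.41 (SD, n = 3), followed by FGFR4 at -1.48 ± 0.21 and FMNL2, a formin that elongates actin filaments, at -1.22 ± 0.29. The highest values were those of BEX2, a small adaptor protein, at 1.92 ± 0.28, SOAT1 at 1.49 ± 0.19 and SOX4 at 0.99 ± 0.69. The dishes of MPP3 and FGFR4 overlapped, as did those of BEX2 and SOAT1 and those of SOAT1 and SOX4. BEX2 was high in the dish that stood apart, with 639 normalized footprint counts in DMSO replicate 1 against 205 and 209 in the other DMSO libraries.

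**Figure D5:**
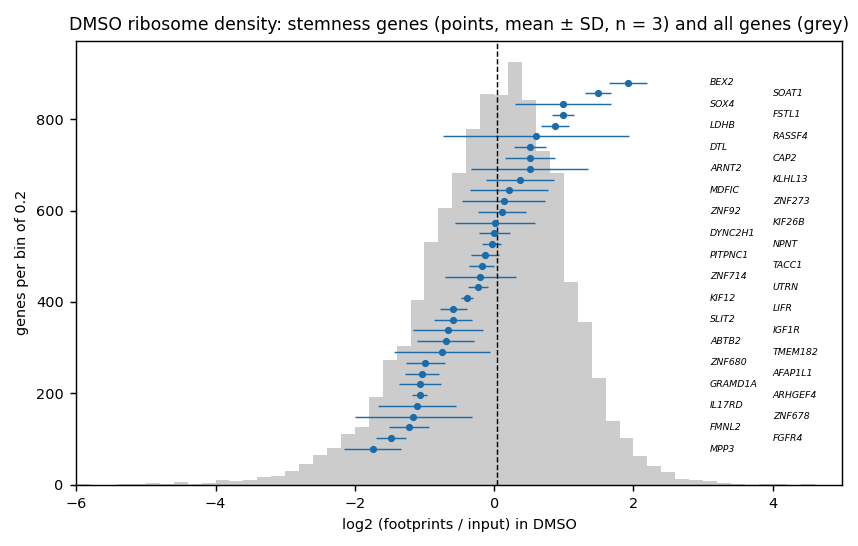
Ribosome density in DMSO as the log2 ratio of footprints to input (x axis), for the 35 stemness genes as points with bars for the SD of 3 dishes, ordered by height and named at the right, over a histogram of all genes (grey, y axis: genes per bin). The points run from -1.74 for MPP3 to 1.92 for BEX2 around the dashed median of all genes at 0.04.

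The remaining 11 measured genes passed in neither input nor footprints by edgeR. They were ARHGEF4, ARNT2, BEX2, CAP2, FGFR4, FMNL2, IL17RD, KLHL13, MDFIC, SOX4 and TMEM182. Their log2 changes ran from -0.60 for BEX2 to 0.87 for CAP2, a protein that binds actin, in input, and from -0.82 for BEX2 to 0.41 for IL17RD in footprints. CAP2 came closest to the threshold in input with an edgeR adjusted p of 0.0578, and IL17RD in footprints with 0.0543. With the replicate block, CAP2, IL17RD and SOX4 passed in input. All 3 measured transcription regulators, SOX4, ARNT2 and MDFIC, were among these 11 genes.

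Per length of coding sequence, input levels of these genes in DMSO differed widely. Among the 35 measured genes LDHB led with 1150.2 normalized counts per kilobase of coding sequence, ahead of FGFR4 with 296, PITPNC1 with 266, BEX2 with 225, GRAMD1A with 216 and DTL with 205. From FGFR4 to DTL, neighbours in this order differed by less than the larger of their SDs between libraries. SOX4, a transcription factor of progenitor cells, had 165 per kilobase. Its input was 144, 183 and 377 normalized counts in DMSO and 336, 402 and 429.6 in trametinib. DMSO replicate 3 overlapped with the treated libraries, and the log2 change of SOX4 was 0.72 (SE 0.29, edgeR adjusted p = 0.0766). SOX4 passed in input in 4 of 13 alternatives: without a filter, with limma-trend, with the replicate block and without DMSO input replicate 3. Of the same 35 genes, the lowest levels per kilobase were those of KIF26B with 1.05, SLIT2 with 5.44 and DYNC2H1 with 6.46.

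Related gene lists place these values. Their counts stand beside 15.3% higher and 16.8% lower among all genes in input, and 23.9% and 25.4% in footprints. Of 21 canonical intestinal stem cell markers, which include LGR5 and TNFRSF19, 13 were measured, and 3 were higher and 3 lower in input. In footprints 4 were higher and 4 lower. Of 47 Wnt pathway components, 39 were measured, with 7 higher and 1 lower in input, 21 higher and 0 lower in footprints and a median footprint change of 0.40. Of 10 genes listed as ERK output, 9 were lower and 1 was higher in input, with a median of -4.76. The higher one was EPHA4 (log2 change 1.22), which also carries the stemness mark and was left out above by rule. Among differentiation markers, 2 of 14 enterocyte genes were measured (1 higher, 1 lower in input) and 1 of 8 goblet cell genes (higher). The 6 enteroendocrine, 5 Paneth and 4 tuft cell markers were all below the minimum. Epithelial markers were higher for 3 of 6 and lower for 0, fibroblast markers were higher for 1 of 2 and lower for 0, and the measured endothelial marker was higher. Of the 289 measured genes named ZNF with a number, stemness genes included, 23 were higher and 13 lower in input. The part of these changes in the results above was not tested.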

How the data were processed

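Ribosome profiling was performed by the authors in HCT116 cells with 3 biological replicates per group in 4 groups, giving 12 libraries. According to the methods and labels, adapters were removed with FASTX, reads matching rRNA or tRNA were discarded with Bowtie 1.2.2 and the rest were mapped to Gencode V38 transcripts. Reads of a set length within open reading frames of a single gene symbol were then counted. The deposited table holds these raw counts, and the authors' normalized counts, which are a signal that is a constant multiple of the counts in 12 of 12 libraries. It also holds fold changes and p-values of the authors (DESeq2 1.46.0), which were not used.

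Raw counts were tested here with the quasi-likelihood test of edgeR 4.0.16 in R 4.3.3, with median-of-ratios size factors and Benjamini-Hochberg adjustment over the 10663 genes with 10 or more counts in at least 3 input libraries. Input and footprints were each fitted over 6 libraries and ribosome density as the interaction of assay and treatment over 12. Normalized counts are counts divided by these size factors, so all changes are relative to the typical gene and a change common to all genes would not be seen. SD, n and p-values cover the spread between the 3 replicates. Scripts were tested on simulated data.

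Alternatives were TMM or library totals, a filter over libraries of either kind or none, DESeq2 1.42.0, limma-trend (limma 3.58.1), a 2-fold minimum, a replicate block and leaving out each library. Deviations of same-numbered footprint libraries of both treatments correlated weakly (r of 0.117, 0.132 and 0.294). The main fits did not treat them as pairs, and the replicate block was an alternative. Input and footprint libraries of a dish come from 1 lysate by the methods. Coordinates are those of Gencode v44 (GRCh38), not the V38 set used for counting. The stemness genes, role groups and gene lists were chosen with earlier results of these data known. Values per library are given for each stemness gene called in input or in ribosome density and for LGR5, and genes named beyond this rule were chosen after their values were seen.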

Additional observations from a re-analysis of the deposited data

Results flagged for a closer look

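The ribosome density of SLIT2 changed by 1.46 on the log2 scale (SE 0.31, edgeR adjusted p = 0.0396). In the main fit, the treatment effect in footprints, 1.73, and that in input, 0.27, thus differed by the interaction test. That fit does not tie together both libraries of a lysate. With a block for each dish the change did not pass (edgeR adjusted p = 0.0804), and 5 of 21 alternatives called it. All 3 trametinib dishes lay above all 3 DMSO dishes. The adjusted p lay between 0.0225 and 0.230 over the alternatives that gave one, and the change between 1.29 and 1.64. Groups of 3 libraries were not tested for single outlying samples.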

How the results depend on the processing

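Of the 8 higher and 5 lower stemness genes in input, 3 and 4 changed by at least 2-fold. DESeq2 gave 3 lower genes, and leaving out 1 library gave 6 to 11 higher and 2 to 5 lower. In footprints, where 13 were higher and 9 lower, the 2-fold minimum left 6 and 5, and leaving out 1 library gave 11 to 16 and 6 to 9. The cause of these differences was not tested. In ribosome density, where 1 gene was higher, 0 were called without a filter on low counts, with DESeq2, with the replicate block, with the block for each dish, and without both libraries of DMSO replicate 1, an alternative chosen after seeing the data. Leaving out 1 library gave 0 to 1.

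Same-numbered input libraries of both treatments did not deviate together in every pair (r of 0.068, 0.0483 and 0.333). Whether they share more than a number was not tested. In input the replicate block gave 11 higher and 5 lower genes, and with that block SLIT2 had a density change of 1.46. Estimates near 0 changed sign. In input, ZNF680 was at -0.0013 with limma-trend. With 1 library left out, input estimates ran from -0.067 to 0.14 for FGFR4, from -0.083 to 0.0699 for FMNL2, from -0.056 to 0.52 for KLHL13, from -0.019 to 0.22 for LIFR, from -0.33 to 0.31 for MPP3 and from -0.17 to 0.17 for ZNF680. In footprints, FMNL2 was at 0.16 with library totals, and with 1 library left out FMNL2 ran from -0.087 to 0.091, KLHL13 from -0.14 to 0.42 and TMEM182 from -0.17 to 0.76. With all libraries, none of these genes passed in the assay concerned by edgeR, while TMEM182 passed in footprints without DMSO replicate 1 (0.76, edgeR adjusted p = 0.0267). Low input counts limit the precision for KIF26B, RASSF4, SLIT2, ZNF273 and ZNF714. For RASSF4, with DMSO input counts of 1, 3 and 12, the input change was 1.14 (SE 0.65).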
